A study of Mus musculus with 28 samples.

Results

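The right ventricle (RV) was set against the left ventricle (LV) of the same hearts in untreated Pkp2-cKO mice. The members were the 8 libraries whose titles give Pkp2 knockout with HBSS, a salt solution injected in place of vector, from the 4 animals numbered 177, 180, 257 and 264, out of 28 libraries in the series. Each of these C57BL6 animals carried floxed Pkp2 alleles and αMyHC-Cre-ER(T2), a tamoxifen-dependent Cre whose promoter is active in heart muscle cells, and each received tamoxifen to delete both copies of Pkp2. The deletion was thus directed at muscle cells, and other cells of the ventricle kept the gene. The labels gave neither an age nor a collection time for single animals. The same contrast in 2 other groups was set beside it: 3 pairs (6 libraries) of Cre-negative littermates with the same floxed alleles and HBSS, called control hearts here, and 3 pairs (6 libraries) of Pkp2-cKO mice that received TN-401, an AAV9 vector with human PKP2, at 6E13 vector genomes per kg 1 week before tamoxifen. A further 2 pairs, from Pkp2-cKO mice given TN-401 at 3E13 vector genomes per kg 1 week before tamoxifen, entered the fit behind the p-values.

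Plakophilin-2, the product of Pkp2, links desmosomal cadherins to desmoplakin at the intercalated disc, the junction that joins heart muscle cells end to end. Loss of 1 copy of the human gene is a leading known cause of arrhythmogenic right ventricular cardiomyopathy, in which muscle is replaced by fibrous and fatty tissue and the RV is typically the more affected chamber. The ventricles of a normal heart also differ in embryonic origin, wall thickness and pressure load.

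The 8 libraries held between 19364952 and 27919395 estimated reads, and the RV library was the smaller one in each of the 4 animals. Levels are given as CPM, the reads of a gene scaled to a common library total with trimmed mean of M-values (TMM) factors. Differences are log2 RV/LV ± the standard error of the fit, so that a value above 0 means more RNA of the gene in the RV. The LV of animal 177 stood apart from the other 3: its summed level of the ventricular muscle markers was 11450 CPM, against up to 27940 CPM in another LV, and its summed macrophage markers were 3078 CPM, against 578.7 CPM in the lowest LV. Atrial muscle genes were present in the RV pieces of some animals, as given with the chamber genes further on. In bulk pieces, fewer cells of a type and less RNA per cell cannot be told apart.

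Pkp2, the deleted gene, lies on GRCm39 chromosome 16, 16031144 to 16090586, plus strand. Its level in animals 177, 180, 257 and 264 was 31.5, 47.3, 44.8 and 58.1 CPM in the LV and 29.4, 37.1, 30.05 and 36.3 CPM in the RV. The RV was lower in each animal, although the ranges of the ventricles overlapped. Control hearts held 119.5 ± 10.1 CPM in the LV and 113.2 ± 4.82 CPM in the RV (SD, n = 3). The log2 RV/LV was -0.43 ± 0.10 in Pkp2-cKO hearts (adjusted p = 0.0391, edgeR's quasi-likelihood test with Benjamini-Hochberg adjustment over 17981 genes). It was -0.08 in control hearts, and the difference between these groups did not pass the test (edgeR, adjusted p = 0.445). Human PKP2 was at 0 counts in all 8 libraries.

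Across the transcriptome, 733 of 17981 genes (4.08%) differed between the RV and LV of Pkp2-cKO hearts at an adjusted p under 0.05 (edgeR, animal as a block). Of these, 340 (1.89%) were higher and 393 (2.19%) lower in the RV. A difference past 1 on the log2 scale was reached by 105 of the higher and 25 of the lower genes. The direction was shared by all 4 animals for 332 of the higher and 390 of the lower genes, which the choice of genes on these same animals largely fixes. An unadjusted p under 0.05 was found for 3454 genes (19.2%). RV and LV libraries did not overlap at all for 462 genes with a higher RV (2.57%) and 350 with a lower RV (1.95%), of which 164 and 100 were called.

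The number of genes called depended on the animals and on the fit. It was 197 without animal 180, 127 without animal 264, 479 without control animal 637 and 477 without either animal of the 3E13 dose, whose pairs also entered the fit. The 4 pairs fitted alone gave 0 calls by edgeR, with 2258 genes at an unadjusted p under 0.05. With all 12 pairs, voom called 1158 genes and DESeq2 1438. On the log2(TPM + 1) scale 1057 genes were called, 95.4% of them higher in the RV against 46.4% in the count fit, and the median of all genes lay 0.12 higher.

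Genes called without 1 animal were then read in the animal left out. Without animal 264, 75 genes were called higher and 52 lower, and 70 and 50 of them had the same direction in animal 264, with medians of 0.80 and -0.69 there. Without animal 180, 97 of 101 and 92 of 96 had the same direction in animal 180, with medians of 0.77 and -0.45. Without animal 257, the counts were 323 of 361 and 279 of 299, with medians of 0.28 and -0.25. For animal 177 they were 267 of 363 higher genes, with a median of 0.72, and 411 of 688 lower genes, whose median of -0.09 in that animal was close to 0. Between 47.0% and 51.4% of all genes had a given direction in the animal left out.

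**Figure D1:**
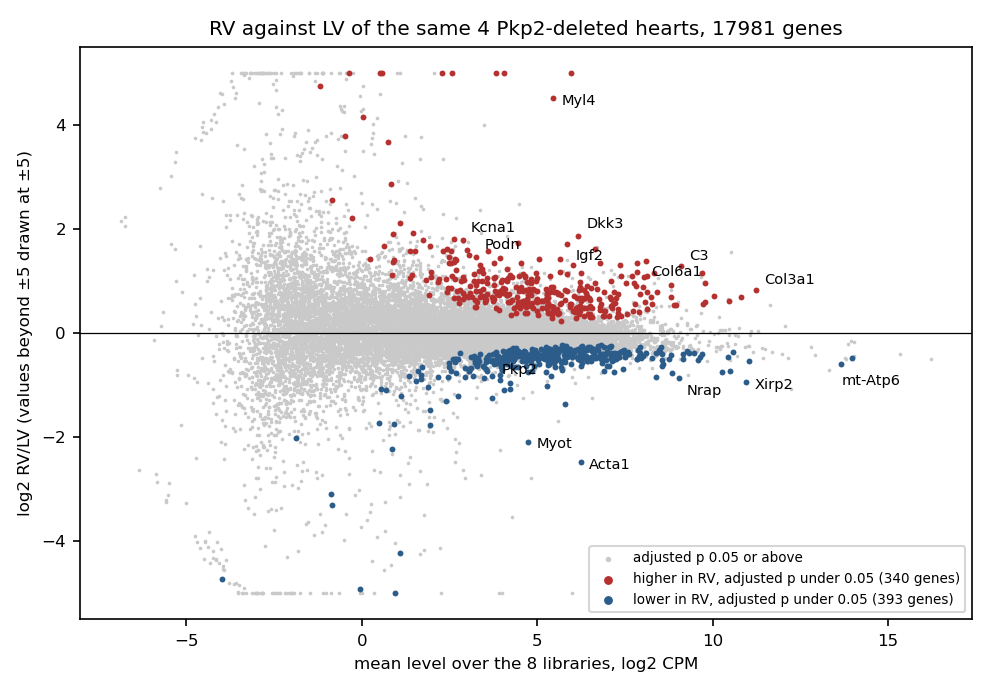
Mean level over the 8 Pkp2-cKO libraries (log2 CPM, horizontal) against log2 RV/LV (vertical, values beyond 5 drawn at 5) for 17981 genes, with the 340 genes called higher in the RV in red and the 393 called lower in blue. Matrix and complement genes such as Podn, C3 and Col6a1 lie above 0, while the muscle genes Acta1, Myot and Nrap lie below it.

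Genes of resting fibroblasts were higher in the RV. Of 22 genes of that list tested, 12 were called higher and 0 lower, against 1.89% and 2.19% of all genes, and the median log2 RV/LV was 0.67 against -0.01 for all genes. Dpt, which encodes the matrix protein dermatopontin, was at 39.8, 62.96, 79.8 and 91.4 CPM in the LV of animals 177, 180, 257 and 264 and at 124.1, 114.0, 101.7 and 183.4 CPM in the RV. Every RV value was above every LV value, and the difference was 0.96 ± 0.15 (edgeR, adjusted p = 0.00743). Pdgfra, the PDGF receptor that marks cardiac fibroblasts, lay at 110.3 to 129.5 CPM in the LV and 147.9 to 198.0 CPM in the RV, again without overlap (log2 RV/LV 0.58 ± 0.08, adjusted p = 0.00442). Tcf21, a transcription factor of the resting fibroblast lineage, and the small proteoglycans Lum and Dcn were called at 1.01, 0.97 and 0.95. The list median was 1.14, 0.60, 0.35 and 0.57 in the 4 hearts, in the same order, and 0.21 in control hearts and 0.19 at the 6E13 dose. The number called higher was 4 without animal 180, 4 without animal 264 and 3 with the atrial level as a covariate, while the median was 0.64, 0.81 and 0.77 in these fits.

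Collagen genes were higher as well. Of 41 chains tested, 11 were called higher and 0 lower, and 37 lay above 0. Col6a1 (chromosome 10, 76543440 to 76562283, minus strand), a chain of collagen VI, the microfibril that surrounds muscle cells and fibroblasts, was at 136.3, 152.6, 196.9 and 244.7 CPM in the LV and at 343.6, 281.2, 304.9 and 403.2 CPM in the RV. The ventricles did not overlap, and the difference was 0.89 ± 0.12 (edgeR, adjusted p = 0.00426). Its partner chains Col6a2 and Col6a3 were at 0.79 ± 0.10 and 0.60 ± 0.08 (adjusted p = 0.00347 and 0.00456). The fibrillar chains Col1a2 and Col3a1 were called at 0.71 ± 0.17 and 0.82 ± 0.19 (adjusted p = 0.0388 and 0.0393). Col1a1, the other chain of type I collagen, was at 0.66 ± 0.21 and did not pass (adjusted p = 0.0998). The basement membrane chains Col4a5 and Col4a6 were called at 0.63 and 1.46. The median was 0.67 in Pkp2-cKO hearts, 0.35 at the 6E13 dose and -0.28 in control hearts. With the atrial level as a covariate, 0 chains were called and the median was 0.57, and without animal 180 or without animal 264 4 and 4 were called, with medians of 0.56 and 0.72.

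Among 84 other genes of the matrix and its turnover, 16 were called higher and 0 lower, with a median of 0.47. Podn (chromosome 4, 107871988 to 107889534, minus strand), a leucine-rich proteoglycan, was at 11.5, 22.04, 18.5 and 20.9 CPM in the LV and at 38.3, 56.9, 39.9 and 57.4 CPM in the RV. All RV values were above all LV values. The difference was 1.42 ± 0.15 (edgeR, adjusted p = 0.0026), against 0.17 in control hearts and 0.30 at the 6E13 dose. Efemp1, an elastic-fibre protein of the fibulin family, was called at 1.504 ± 0.18, Fbln1, of the same family, at 1.39 ± 0.27 and the gelatinase gene Mmp2 at 1.11 ± 0.28 (adjusted p = 0.00317, 0.0199 and 0.04998). The procollagen C-proteinase enhancers Pcolce and Pcolce2 were called at 0.67 and 0.66. The list was at -0.02 in control hearts and 0.38 at the 6E13 dose. Without animal 180, without animal 264, with the atrial covariate and without the replicate block, 6, 5, 5 and 1 of its genes were called higher, with medians of 0.41, 0.50, 0.52 and 0.38.

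Fewer genes of fibroblast activation were called, 2 of 29 higher and 0 lower, with a median of 0.33. They were Sfrp1, a secreted Wnt antagonist, at 1.102 ± 0.18, and Pdgfrb, a receptor of fibroblasts and pericytes, at 0.33 ± 0.08 (edgeR, adjusted p = 0.00941 and 0.038). The median of this list was 0.001 in control hearts and 0.40 at the 6E13 dose. Without animal 264 and without the replicate block 0 of its genes were called, with medians of 0.40 and 0.27. Postn, the matricellular protein widely used as a mark of activated fibroblasts, was at 402.9, 374.2, 678.0 and 1479 CPM in the LV and at 989.0, 470.7, 526.2 and 928.2 CPM in the RV. It was higher in the RV of animals 177 and 180 and lower in that of 257 and 264 (log2 RV/LV 0.14 ± 0.28, adjusted p = 0.861). All 17 of 17 genes of the valve and cartilage-like matrix list lay above 0, with a median of 1.05, and 1 of them, the transcription factor gene Sox9, was called (0.81 ± 0.17, adjusted p = 0.0281). Cilp, Fmod and Comp, matrix genes of that list, were at 1.05, 1.405 and 1.66 and did not pass (adjusted p = 0.0697, 0.0727 and 0.0789).

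Of 47 genes of TGF-beta, BMP and secreted Wnt signalling, 6 were called higher and 0 lower, with a median of 0.35. Dkk3, a secreted member of the dickkopf family that is also on the atrial list, was at 6.64, 40.5, 52.4 and 36.6 CPM in the LV and at 63.7, 172.7, 141.6 and 62.9 CPM in the RV. Every RV value was above every LV value, with the highest in animals 180 and 257 (1.86 ± 0.31, edgeR, adjusted p = 0.0101). Id2, a target of BMP signals, was called at 0.89 ± 0.13, and the TGF-beta receptor gene Tgfbr2 at 0.32 ± 0.07 (adjusted p = 0.00657 and 0.0296). Fits without animal 180, without animal 264 and with the atrial covariate called 2, 2 and 1 genes of the list higher, with medians of 0.37, 0.35 and 0.37.

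**Figure D2:**
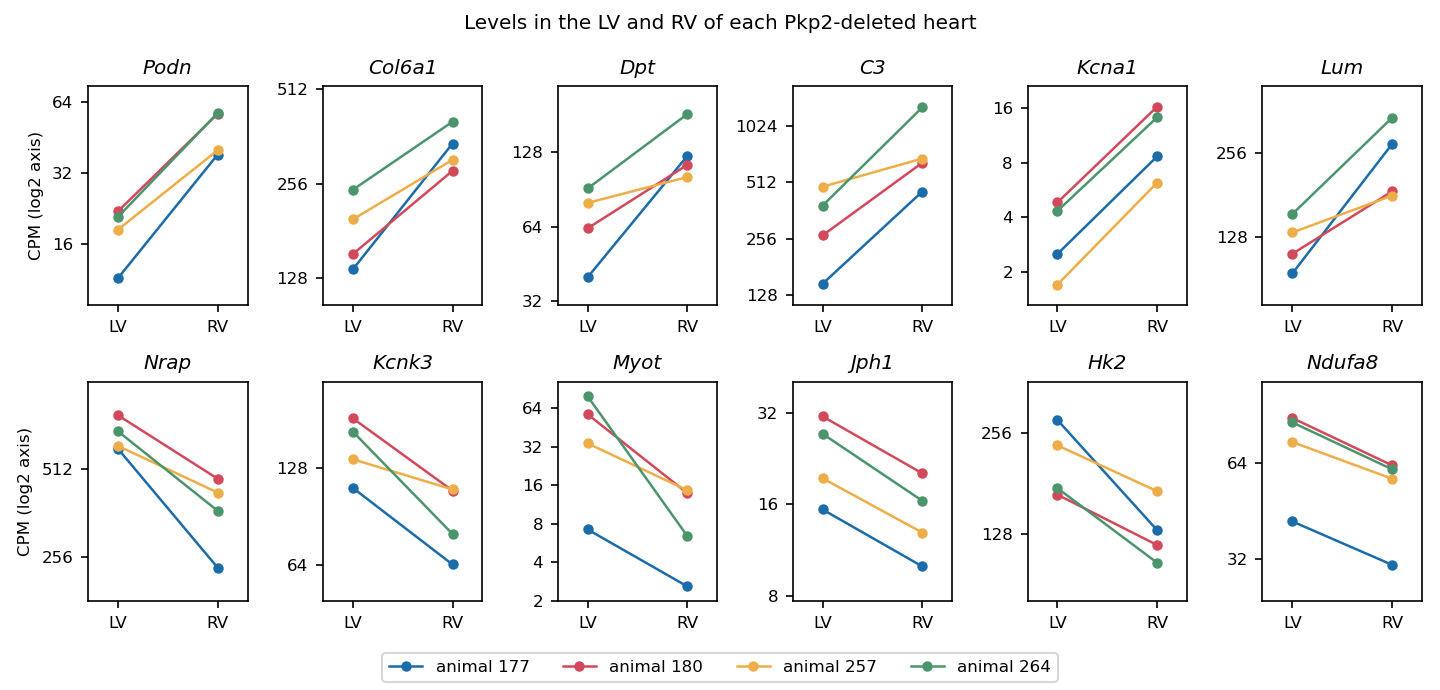
Level in the LV and RV of each Pkp2-cKO heart (CPM on a log2 axis, 1 line per animal) for 6 genes higher in the RV (upper row) and 6 lower in the RV (lower row). Every line rises in the upper row and falls in the lower row, and the LV of animal 177 is the lowest LV of the 4 for every gene drawn except Kcna1 and Hk2.

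Genes of Schwann cells and neurons were higher in the RV, with 4 of 13 called higher, 0 lower and a median of 0.93. Kcna1 (chromosome 6, 126617360 to 126623347, minus strand), a voltage-gated potassium channel subunit of axons, was at 2.51, 4.83, 1.70 and 4.33 CPM in the LV and at 8.67, 16.3, 6.21 and 14.3 CPM in the RV. No LV library reached the lowest RV library, and the difference was 1.78 ± 0.17 (edgeR, adjusted p = 0.00232). Also called were the cadherin gene Cdh19 and the sodium channel gene Scn7a, at 0.93 and 1.003. Kcna2, a partner subunit of Kcna1 outside the list, was called at 1.46 ± 0.22 (adjusted p = 0.00632). In control hearts Kcna1 and Kcna2 were at 0.75 and 1.16, and the list had a median of 0.42.

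Genes of the intercalated disc were lower in the RV, as were the summed ventricular muscle markers in each heart. In animals 177, 180, 257 and 264 these sums were 11450, 27940, 20670 and 23410 CPM in the LV. They were 9501, 22840, 17140 and 15840 CPM in the RV. Whether the falls of muscle genes in this and the next paragraphs went beyond this general one was not tested. Of 25 genes of the desmosome and area composita, 8 were called lower and 0 higher, with a median of -0.28. Nrap (chromosome 19, 56308454 to 56378631, minus strand), an actin-anchoring protein of the disc, was at 601.5, 782.5, 614.9 and 689.7 CPM in the LV and at 236.3, 475.2, 426.1 and 369.4 CPM in the RV. All RV values were below all LV values, and the difference was -0.87 ± 0.12 (edgeR, adjusted p = 0.00415). Des, for the muscle intermediate filament desmin, was called at -0.75 ± 0.15, Dsg2, for desmoglein-2, at -0.58 ± 0.12, Cdh2, for N-cadherin, at -0.40 ± 0.08 and Jup, for plakoglobin, at -0.32 ± 0.08 (adjusted p = 0.0199, 0.022, 0.023 and 0.0388). Dsp and Dsc2, for desmoplakin and desmocollin-2, did not pass, at -0.24 ± 0.11 and -0.32 ± 0.09 (adjusted p = 0.245 and 0.0727). The list median lay between -0.39 and -0.20 in the 4 hearts and was -0.03 in control hearts and -0.07 at the 6E13 dose. The number called lower was 2 without animal 180, 1 without animal 264 and 1 without the replicate block, with medians of -0.26, -0.22 and -0.30.

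Of 34 genes of gap junctions, sodium and potassium channels, 2 were called lower and 1 higher. Kcnk3, a background potassium channel, was at 111.3, 183.4, 136.7 and 166.8 CPM in the LV and at 64.2, 109.2, 110.1 and 79.96 CPM in the RV. No RV value reached the lowest LV value, and the difference was -0.73 ± 0.11 (edgeR, adjusted p = 0.0067). It was at -0.44 in control hearts and -0.32 at the 6E13 dose. The channel subunit gene Kcne4 was called higher at 1.06 ± 0.25 (adjusted p = 0.0403). It was at 0.37, 0.58, 1.05 and 2.23 in animals 177, 180, 257 and 264, and was not called without animal 180, 257 or 264. Gja1, which encodes the main ventricular gap junction protein, was at -0.13 ± 0.09 (adjusted p = 0.534).

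Part of the contractile apparatus was lower. Of 45 sarcomere genes, 8 were called lower and 0 higher, with a median of -0.29. Acta1, the skeletal form of alpha-actin, was at 159.2, 38.01, 106.6 and 210.6 CPM in the LV and at 16.7, 13.04, 43.8 and 14.2 CPM in the RV. The RV was lower in every animal, with the RV of animal 257 above the LV of animal 180. The difference was -2.49 ± 0.46 in Pkp2-cKO hearts (edgeR, adjusted p = 0.0158), -1.52 in control hearts and 0.06 at the 6E13 dose. The Z-disc gene Myot was called at -2.09 ± 0.31, and Actn2, Myl3 and Tnnc1, for alpha-actinin, a ventricular light chain and troponin C, at -0.47, -0.52 and -0.50 (adjusted p = 0.00603, 0.015, 0.0456 and 0.0457). Myh6, the main myosin of the adult mouse ventricle, and Tnnt2, for troponin T, were at -0.27 ± 0.12 and -0.27 ± 0.11 and were not called (adjusted p = 0.244 and 0.204). The number called lower was 2 without animal 180, 1 without animal 264 and 16 without animal 177, with medians of -0.29, -0.21 and -0.39.

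Of 34 calcium handling genes, 6 were called lower and 1 higher. Jph1, a junctophilin that ties the surface membrane to the calcium store, was at 15.4, 31.2, 19.5 and 27.3 CPM in the LV and at 10.0, 20.3, 12.9 and 16.5 CPM in the RV. It was lower in the RV of every animal, although the ranges overlapped (-0.64 ± 0.07, edgeR, adjusted p = 0.0026). Jph2, the main cardiac junctophilin, was called at -0.47 ± 0.10 and triadin (Trdn) at -0.37 ± 0.07 (adjusted p = 0.026 and 0.0199). In control hearts Jph1 was at -0.06 and Jph2 at -0.53. The gene called higher was Sln, a regulator of the calcium pump in atrial muscle, which was listed at 0 in all 4 LV libraries. The calls lower fell to 1 without animal 180, 2 without animal 264 and 1 with the atrial covariate, with medians of -0.20, -0.23 and -0.21 against -0.23.

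Mitochondrial genes were lower in the RV. The mitochondrial genome took 23.7 ± 3.94% of reads in the LV and 19.4 ± 3.42% in the RV (SD, n = 4). The RV minus LV difference was -3.17, -3.54, -4.61 and -5.900 percentage points in animals 177, 180, 257 and 264. All 4 differences had the same sign, which a two-sided exact permutation test meets in 2 of 16 sign patterns, the fewest that 4 pairs allow, so that an exact p under 0.05 could not be reached. The difference was 5.94, 2.87 and -0.88 points in the 3 control hearts and -2.84, 1.89 and -4.63 points at the 6E13 dose. Of 15 transcripts of the mitochondrial genome, 3 were called lower and 0 higher: mt-Atp6, mt-Nd3 and mt-Cytb at -0.59, -0.54 and -0.48 (edgeR, adjusted p = 0.023, 0.0225 and 0.0421).

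Nuclear genes of oxidative phosphorylation had 13 of 58 called lower, 0 higher and 57 below 0. The median was -0.34 and lay between -0.50 and -0.23 in the 4 hearts, while it was 0.12 in control hearts and -0.15 at the 6E13 dose. Ndufa8, a subunit of complex I, was at 42.03, 88.9, 74.7 and 86.1 CPM in the LV and at 30.7, 63.1, 57.3 and 61.3 CPM in the RV. Each RV was below its own LV with overlapping ranges, and both ventricles were lowest in animal 177 (-0.46 ± 0.08, edgeR, adjusted p = 0.014). Of 38 genes of fatty acid uptake and oxidation, 9 were called lower and 0 higher, with a median of -0.41. Acadvl and Hadha, which act on long-chain fatty acids, were called at -0.49 ± 0.09 and -0.51 ± 0.11, and the fatty acid transporter gene Cd36 at -0.41 ± 0.09 (adjusted p = 0.0126, 0.0238 and 0.0249). The fatty acid list was at 0.10, -0.51, -0.37 and -0.73 in the 4 hearts, with animal 177 alone above 0, and 27 of its genes were called lower without animal 177.

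Of 36 genes of the citric acid cycle and mitochondrial regulators, 9 were called lower and 0 higher. Among them were Bdh1, an enzyme of ketone body use, at -0.63 ± 0.11 and the creatine kinase gene Ckm at -0.47 ± 0.10 (edgeR, adjusted p = 0.0114 and 0.0264). Bdh1 was also lower in the RV of each control heart, at -0.65, -0.98 and -0.87, while Ckm was at 0.48, -0.06 and 0.26 there. The list median was -0.30 in Pkp2-cKO hearts, -0.003 in control hearts and -0.14 at the 6E13 dose. Of 34 genes of glucose transport and glycolysis, 3 were called lower, with Hk2, for hexokinase-2, at -0.69 ± 0.09 (adjusted p = 0.00426). Without animal 180 the oxidative phosphorylation and fatty acid lists had 0 and 0 genes called lower, with medians of -0.36 and -0.35. Without animal 264 they had 0 and 0, with medians of -0.29 and -0.26. The citric acid cycle list had 2 and 0 called in these fits, with medians of -0.29 and -0.22, and the glucose list 1 and 1. On log2(TPM + 1) the median of all genes was 0.11 in this contrast. There the oxidative phosphorylation, fatty acid and citric acid cycle lists had 0 genes called lower, with medians of -0.12, -0.19 and -0.12. The mitochondrial genome list had 0 called lower, with a median of -0.29. Desmosome, sarcomere and calcium handling lists had 1, 2 and 2, with medians of -0.06, -0.09 and -0.01.

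**Figure D3:**
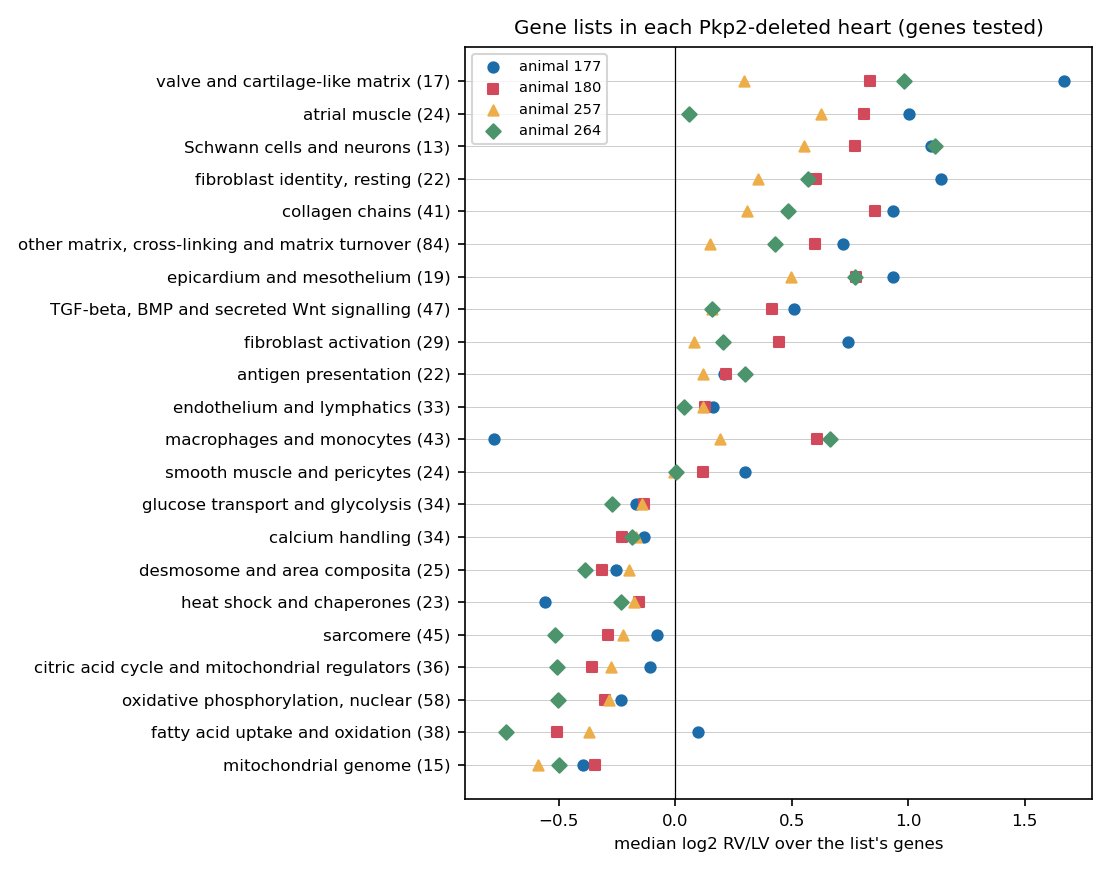
Median log2 RV/LV over the genes of each list (horizontal) in each of the 4 Pkp2-cKO hearts, with the number of genes tested in brackets. The resting fibroblast, collagen and matrix lists lie above 0 and the desmosome, sarcomere, oxidative phosphorylation and mitochondrial genome lists below 0 in each heart, whereas the macrophage list is at -0.78 in animal 177 and above 0 in the other 3.

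Of 23 heat shock and chaperone genes, 4 were called lower and 0 higher. The small heat shock protein genes Hspb6 and Hspb7 were at -0.85 ± 0.12 and -0.74 ± 0.14, and Bag3, a co-chaperone of the Z-disc, at -0.41 ± 0.08 (edgeR, adjusted p = 0.0046, 0.015 and 0.0237). In the control hearts Hspb7 was at -0.65, -0.49 and -0.36 and Bag3 at -0.65, -0.26 and -0.47. Hspb6 was at -0.38, -0.23 and 0.05 there, and the list median was -0.14. Without animal 264, 1 gene of this list was called lower, with a median of -0.33 against -0.29. Of 27 genes of the heart failure and fetal programme, 2 were called lower and 1 higher. The lower ones were Acta1 and Xirp2, a muscle stress gene at -0.95 ± 0.23, and the higher one was Ace, for angiotensin-converting enzyme, at 0.40 ± 0.10 (adjusted p = 0.0397 and 0.0409). Xirp2 was at -0.62, -0.43 and -0.67 and Ace at -0.26, -0.30 and -0.39 in the control hearts. The natriuretic peptide genes Nppa and Nppb were at 0.83 ± 0.48 and -0.38 ± 0.27 and did not pass (adjusted p = 0.393 and 0.505). Of 36 genes of adrenergic, angiotensin and cyclic AMP signalling, 2 were called higher and 2 lower, the latter including the beta-1 adrenergic receptor gene Adrb1 at -0.49 ± 0.11 (adjusted p = 0.0337).

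Endothelial and lymphatic genes were mixed, with 5 of 33 called higher and 2 lower. Vwf, for von Willebrand factor, was called at 1.08 ± 0.19, Reln, a gene of lymphatic endothelium, at 1.32 ± 0.20 and Lyve1, which marks lymphatics and some resident macrophages, at 1.18 ± 0.23 (edgeR, adjusted p = 0.0131, 0.00658 and 0.0192). Flt1, a VEGF receptor, and Cd36 were the genes called lower. Antigen presentation had 3 of 22 called higher and 0 lower, and these were class II pathway genes: H2-Aa at 0.72 ± 0.09, Cd74 at 0.57 ± 0.09 and H2-Ab1 at 0.52 ± 0.10 (adjusted p = 0.00347, 0.00878 and 0.0201). At the 6E13 dose they were at 0.89, 0.84 and 0.83. Without animal 264 the endothelial and antigen presentation lists had 1 and 1 called higher. Of 43 macrophage genes 1 was called higher, Lyve1, and without animal 177 13 were.

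Smooth muscle and pericyte genes had 3 of 24 called higher and 1 lower. The adipocyte list had 1 of 17 called higher, Scd1, a fatty acid desaturase, at 0.57. Of 23 p53 targets 2 were called lower, Mdm2 at -0.30 and Perp at -0.53, and of 42 genes of the integrated stress response 1 was, the mitochondrial chaperone gene Hspd1 at -0.47, a share near the 2.19% of all genes called lower. Other lists had 0 genes called by edgeR. At an unadjusted p under 0.05, where 1523 (8.47%) of all genes were higher and 1931 (10.7%) lower, the interferon list had 5 higher and 1 lower of 40, the conduction system 6 and 1 of 18, granulocytes 1 and 1 of 15 and T, NK and B cells 1 and 0 of 21. Red blood cells had 0 and 1 of 10, the cell cycle 0 and 1 of 35, the circadian clock 2 and 1 of 19 and immediate early genes 0 and 1 of 26.

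Genes that pattern the chambers were few among the calls, with 2 of 40 called higher and 2 lower. Irx4, a ventricular transcription factor, was at 10.0, 13.02, 22.1 and 15.1 CPM in the LV and at 7.51, 9.88, 10.2 and 7.67 CPM in the RV. It was lower in the RV of each heart, with overlapping ranges (-0.73 ± 0.13, edgeR, adjusted p = 0.015). The muscle methyltransferase gene Smyd1 was called at -0.49 ± 0.10 and the guidance ligand gene Sema3c at 0.81 ± 0.16 (adjusted p = 0.0241 and 0.0204). Hand2, a transcription factor needed to form the RV, was at -0.16 ± 0.09, and Tbx20 and Tbx5 at 0.43 ± 0.12 and 0.18 ± 0.19, none of them called (adjusted p = 0.358, 0.0676 and 0.688).

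Atrial muscle genes were higher in the RV pieces, with 10 of 24 called higher and 0 lower. Myl7, the atrial regulatory light chain, was at 0, 0.177, 0 and 0.0688 CPM in the LV of animals 177, 180, 257 and 264 and at 2.13, 83.7, 46.03 and 0.0372 CPM in the RV. It was high in the RV of animals 180 and 257, low in that of 177 and near 0 in that of 264. Myl4, the atrial essential light chain, was at 7.41, 177.5, 160.6 and 1.71 CPM in the RV, against 0.994 to 1.57 CPM in the LV. Sln was at 0.498, 27.2, 19.7 and 0 CPM in the RV and Bmp10, a ligand made by atrial muscle, at 28.7, 53.5, 413.7 and 0.223 CPM, against 0 to 0.319 CPM in the LV. In the RV of control hearts Myl7 and Myl4 were at 0.210 ± 0.363 and 0.955 ± 0.169 CPM (SD, n = 3), and at the 6E13 dose at 0.114 ± 0.197 and 0.814 ± 0.141 CPM. Adm, for adrenomedullin, also on the list, was higher in the RV of every heart, with 37.8 CPM in the RV of animal 264 and 15.4 in its LV (1.05 ± 0.17, edgeR, adjusted p = 0.00945).

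**Figure D4:**
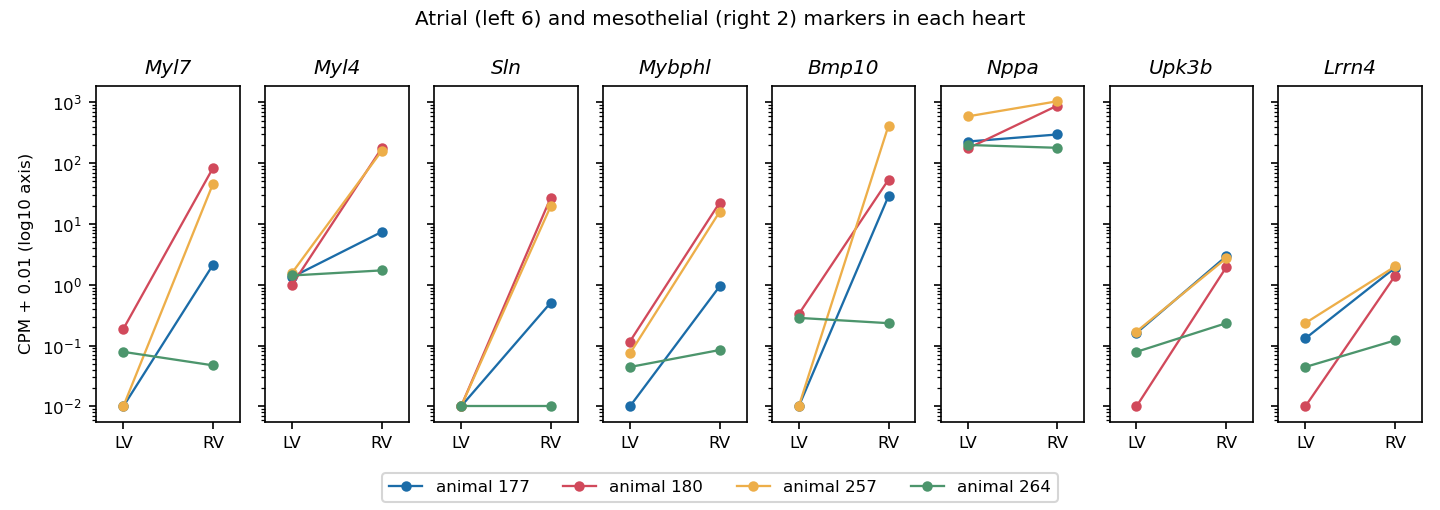
Level of 6 atrial and 2 mesothelial genes in the LV and RV of each Pkp2-cKO heart, as CPM + 0.01 on a log10 axis. Myl7, Myl4, Sln and Mybphl rise steeply in animals 180 and 257 and stay near their LV level in animal 264.

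Genes of the epicardium and mesothelium, the outer lining of the heart, had 7 of 19 called higher and 0 lower. Upk3b, which marks mesothelium, was at 0.151, 0, 0.160 and 0.0688 CPM in the LV and at 2.92, 1.93, 2.71 and 0.223 CPM in the RV, with the lowest RV value in animal 264. C3 of the same list, the central component of complement, was at 146.8, 266.0, 483.4 and 383.4 CPM in the LV and at 455.6, 648.7, 682.9 and 1280 CPM in the RV. Its highest RV value was in animal 264, and each RV was above its own LV (1.29 ± 0.17, edgeR, adjusted p = 0.00426). The median of the list lay between 0.50 and 0.94 in the 4 hearts, and the fitted median was 0.44 in Pkp2-cKO hearts and 0.64 in control hearts. Taken gene by gene, the median of Pkp2-cKO minus control was 0.64, so these fitted medians do not give the direction of the difference. Leaving out animal 177, 180 or 264 gave 3, 2 and 2 calls, with medians of 0.75, 0.72 and 0.65.

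The other groups of genes were read beside the atrial signal. In animal 264, where Myl7, Sln and Bmp10 were at or near 0 in both ventricles, the medians of the resting fibroblast, collagen, desmosome, sarcomere and oxidative phosphorylation lists were 0.57, 0.49, -0.39, -0.52 and -0.50. Without animals 180 and 257, 357 genes were called, 195 higher and 162 lower. Of the 340 genes called higher on all 4 animals, 148 were called there, and of the 393 called lower 110 were. These genes had been chosen with animals 177 and 264 in the fit, so their direction in these animals was largely fixed by the choice. With the atrial level as a covariate 82 genes were called. The median log2 RV/LV of the genes called higher was 0.95 with the covariate and 0.78 without it. For the genes called lower it was -0.55 and -0.46. These genes were chosen in the main fit on the same libraries, so the medians cannot show how much the atrial level accounts for. That was not tested. The atrial list had 1 gene called higher without animals 180 and 257, the resting fibroblast list 8, the collagens 5 and the oxidative phosphorylation list 0 lower.

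Other large differences were named only where all 4 hearts had the same direction. Igf2, an insulin-like growth factor of the fetal heart and epicardium, was at 17.7, 34.6, 26.2 and 23.6 CPM in the LV and at 161.7, 51.5, 75.8 and 72.7 CPM in the RV, without overlap (1.72 ± 0.33, edgeR, adjusted p = 0.0196). The genes of secreted matrix proteins Fbln7, Smoc1, Adamtsl2 and Srpx were called at 1.802, 1.73, 1.62 and 1.58, Gpm6a, for a membrane glycoprotein, at 1.59, and Tmem108 and Ism1 at 1.62 and 1.45. Among the lower genes, Ptgds, for prostaglandin D synthase, was called at -1.37 ± 0.23, Rpl3l, a ribosomal protein of striated muscle, at -1.08 ± 0.18 and Mybpc2, a myosin-binding protein of fast muscle, at -1.22 ± 0.30 (adjusted p = 0.0111, 0.0109 and 0.0428). Epn3, Syt12 and Sh3rf2 were called at -1.25, -1.31 and -1.101. Gm14288, with the largest fitted rise, belongs to a family of zinc finger genes with closely similar copies, among which reads could be split uncertainly. It was listed at 0 in all 4 LV libraries, at 20.97 to 37.99 CPM in the RV and at 0 in 1 of 16 libraries of the other groups in the fit.

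In control hearts 1 gene (0.00556%) was called by edgeR between RV and LV, with 1539 (8.56%) at an unadjusted p under 0.05. It was Atf5, a transcription factor that responds to stress, at -0.72 ± 0.08 (adjusted p = 0.0325). At the 6E13 dose 2 genes (0.0111%) were called, H2-Aa and Cd74 (adjusted p = 0.0419 and 0.0419), with 1000 (5.56%) at an unadjusted p under 0.05. These groups had 3 pairs each against 4. Every count also rests on a spread shared by all pairs in the fit. Without animal 177, 11 and 6 genes were called in these groups, with 2068 and 1524 at an unadjusted p under 0.05. Without animal 180, 257 or 264, 0 or 1 was called in each. Fitted alone, the Pkp2-cKO, control and 6E13 pairs gave 0, 0 and 1 calls, with 2258, 1232 and 1437 at that unadjusted p. The counts of calls thus cannot rank the groups by RV/LV difference. The 340 genes called higher in the RV of Pkp2-cKO hearts had medians of 0.78 there, 0.11 in control hearts and 0.29 at the 6E13 dose, with 222 and 310 of them above 0 in the latter groups. The 393 called lower had medians of -0.46, -0.09 and -0.14, with 285 and 360 below 0. The values in Pkp2-cKO hearts are fixed by the choice of genes.

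**Figure D5:**
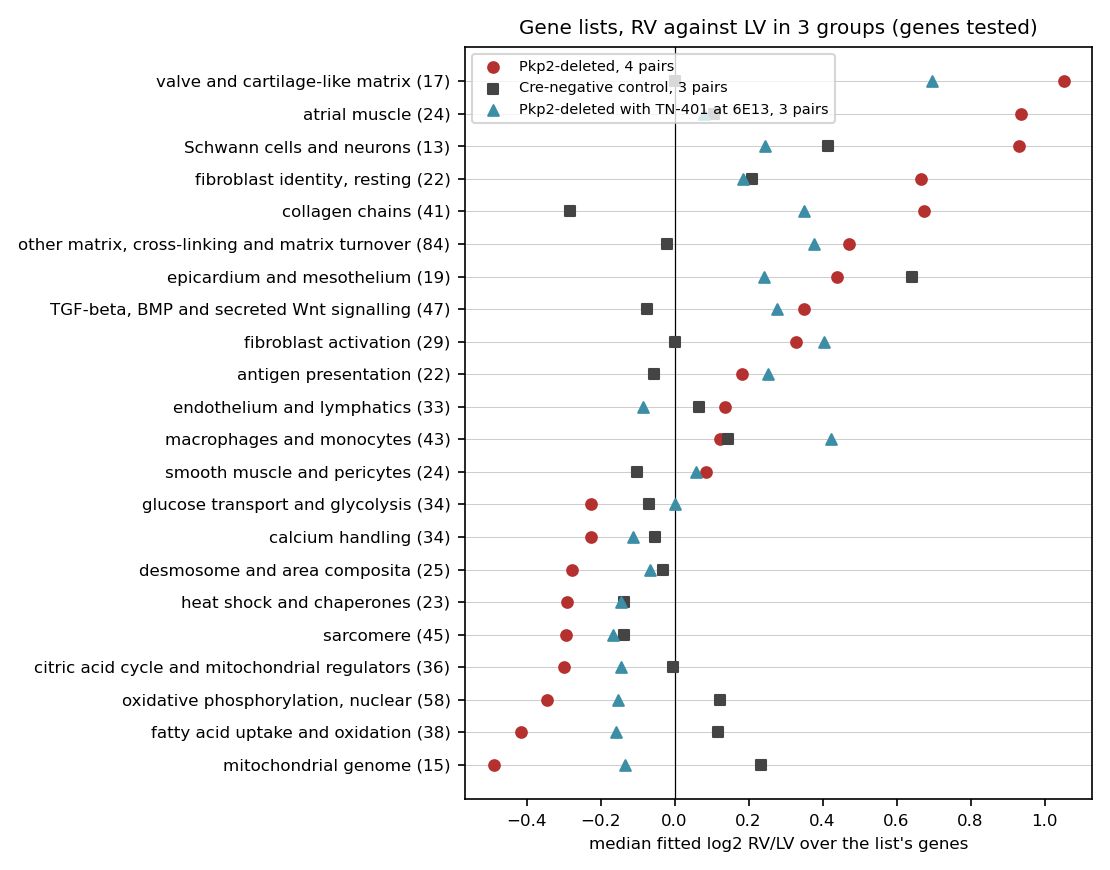
Median fitted log2 RV/LV over the genes of each list (horizontal) in Pkp2-cKO hearts (4 pairs), Cre-negative control hearts (3 pairs) and Pkp2-cKO hearts given TN-401 at 6E13 (3 pairs). Collagens are at 0.67, -0.28 and 0.35 and the oxidative phosphorylation list at -0.34, 0.12 and -0.15 in these groups.

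The difference between groups was tested gene by gene. Between Pkp2-cKO and control hearts the RV/LV difference itself differed for 2 genes (0.0111%) by edgeR, with 1874 (10.4%) at an unadjusted p under 0.05 and 19 at an adjusted p under 0.1. Col6a3 (chromosome 1, 90693645 to 90771780, minus strand) was at 297.2, 126.1, 197.7 and 243.9 CPM in the LV and 402.9, 220.9, 288.8 and 375.8 CPM in the RV of Pkp2-cKO hearts, higher in the RV of each. In control hearts it was at 76.3 ± 6.30 CPM in the LV and 55.1 ± 7.78 CPM in the RV (SD, n = 3). The log2 RV/LV was 0.60 and -0.48, a difference of 1.08 ± 0.13 (edgeR, adjusted p = 0.024). Atf5 differed by 0.95 ± 0.11 (adjusted p = 0.024), and its 0.23 ± 0.07 in Pkp2-cKO hearts alone did not pass (adjusted p = 0.0956). Col6a2, Gas6, a ligand of TAM receptors, and Srpx were at 1.11, 1.35 and 1.75 and did not pass (adjusted p = 0.0558, 0.0558 and 0.0696). The number called was between 0 and 40 when 1 animal was left out, with 40 without animal 177, and DESeq2 called 234. Neither Col6a3 nor Atf5 was called without control animal 636, 637 or 647, without animal 180 or without animal 631 of the 6E13 dose. Nor was either called with the atrial covariate, without the replicate block, without animals 180 and 257 or with only these groups fitted. Against the 6E13 dose 0 genes (0.0%) differed by edgeR, with 979 (5.44%) at an unadjusted p under 0.05, and DESeq2 called 33.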

How the data were processed

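Bulk RNA was sequenced from LV and RV pieces as 2x50 base pairs. The labels give polyA RNA and also a stranded total RNA kit with ribosomal depletion. The authors deposited estimated counts per gene symbol, TPM values and effective lengths for 28 libraries, made with Salmon 1.8.0 on GRCm39 per the submitters' processing notes, with tximport used to build the expression matrix per the study's methods. How Salmon splits reads among similar transcripts is carried in these estimates. Estimated counts were rounded, filtered with filterByExpr, scaled by TMM and tested with edgeR 4.0.16 (R 4.3.3) by quasi-likelihood over the 24 libraries of the 12 animals with both ventricles, with the animal as a block, 1 RV effect per group and Benjamini-Hochberg adjustment over 17981 genes. The study compared groups without pairing, on log2(TPM + 1) of protein-coding genes renormalized without mitochondrial genes. That test was not run. A limma 3.58.1 fit on log2(TPM + 1) of the deposited TPM over the same genes was an alternative, and DESeq2 1.42.0 another. The scripts were tested on simulated data with known changes. Every group had the same spread there, so groups with unlike spread were not tested.

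Pieces of 1 animal share its number in the labels, which makes the pairs. Deviations of the RV and LV from their group means correlated within each Pkp2-cKO animal, at 0.357, 0.349, 0.293 and 0.259 for animals 177, 180, 257 and 264. Each animal gave 1 library per ventricle. The p-values rest on a spread estimated over all 12 pairs in the fit, of which 4 were untreated Pkp2-cKO animals. No pair of libraries within a Pkp2-cKO group agreed within sampling noise (lowest chi-square per degree of freedom 59.3). Total reads were 26450000 ± 1950000 in the LV and 21560000 ± 1790000 in the RV (SD, n = 4). TMM factors were 1.159 ± 0.175 in the LV and 1.317 ± 0.178 in the RV, higher in the RV of each animal.

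The atrial covariate was the mean log2 CPM of Myl7, Myl4 and Sln in each library. The libraries compared and the 37 gene lists (1077 genes, 14 matched by an older symbol and 1 not matched) were chosen with earlier results of these data known. The genes named were Pkp2, the 15 largest rises and falls among called genes that averaged 5 CPM or more and had 1 sign in 4 of 4 animals, up to 4 members per list with the smallest p that averaged 1 CPM or more, the 8 smallest adjusted p for each difference between groups, and chamber and atrial list members with at least 5 CPM. Tcf21, Dcn, Col1a2, Col3a1, Col1a1, Fbln1, Mmp2, Pcolce2, Postn, Jup, Dsp, Dsc2, Gja1, Myl3, Tnnc1, Tnnt2, Nppb, C1ra, Serping1, Igfbp4, Igfbp3 and Igf1 were added after their values were seen. Alternatives were another scaling, no filter, no block, length offsets, other tools, the atrial covariate and leaving out animals. LV libraries without an RV from the same animal were not used, and a few genes that the rule names are not reported here.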

Additional observations from a re-analysis of the deposited data

Results flagged for a closer look

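Among 117 genes given with values, 4 had 1 of the 4 Pkp2-cKO hearts far from the other 3 in log2 RV/LV, and chance alone flags about 1 in 20 such groups (5%). Col3a1 was at 0.06 in animal 257 and between 0.96 and 1.13 in the other 3. Dsp was at 0.16 in animal 177 and between -0.42 and -0.32 in the others. Ace was at -0.01 in animal 257 and between 0.53 and 0.56 in the others, and Sema3c at 1.48 in animal 177 and between 0.52 and 0.67 in the others.

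In 2 genes the RV/LV difference of Pkp2-cKO hearts differed from that of control hearts by edgeR's test of the difference itself. Atf5 was 0.95 higher on the log2 scale (adjusted p = 0.024) and Col6a3 1.08 higher (adjusted p = 0.024). Both calls were lost without control animal 636, 637 or 647.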

How the results depend on the processing

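Among the 203 genes named by the rule, which leaves out those added after their values were seen, no called gene changed sign under the alternatives computed. Values that were not called did so in part: Hand2 was at 0.11 on log2(TPM + 1), Tbx5 at -0.47 and Nppa at -0.01 with the atrial covariate, and the macrophage median was 0.12 with the block and -0.16 without it. In Pkp2-cKO hearts, where the main count was 733, 66 genes were called without the replicate block, 378 with length offsets, 82 with the atrial level as covariate, 357 without animals 180 and 257, 0 with only the 4 pairs compared, 1158 with voom and 1438 with DESeq2. Leaving out 1 animal at a time gave 127 to 1051. In control hearts (main count 1) the numbers were 6 with no filter on low counts, 3 with voom and 135 with DESeq2, and 0 without the replicate block, with the atrial covariate, without animals 180 and 257 and with only these pairs; leaving out 1 animal gave 0 to 11. At the 6E13 dose (main count 2) they were 1 with only these pairs, 4 with voom, 48 with DESeq2 and 0 without the replicate block, with length offsets, with the atrial covariate, without animals 180 and 257 and on log2(TPM + 1); leaving out 1 animal gave 0 to 6. For Pkp2-cKO against control hearts (main count 2) they were 16 with no filter, 0 without the replicate block, 6 with the atrial covariate, 8 without animals 180 and 257, 1 with only these groups, 4 with voom, 47 on log2(TPM + 1) and 234 with DESeq2; leaving out 1 animal gave 0 to 40. Against the 6E13 dose (main count 0) they were 1 with the atrial covariate, 2 without animals 180 and 257 and 33 with DESeq2; leaving out 1 animal gave 0 to 3. The cause of these shifts was not tested. The mitochondrial share differed by -4.305 points, by -4.683 to -3.773 with 1 animal left out and by -5.355 as a share of TPM. Of 203 named genes, 96 lost their call without the replicate block, 58 without animal 180, 73 without animal 264 and 95 with the atrial covariate.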

Other observations

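A few further groups of genes were listed after values had been seen, so their counts are descriptions only. Complement and its regulators had 9 of 30 genes called higher in the RV of Pkp2-cKO hearts and 0 lower by edgeR, with a median log2 RV/LV of 0.50, against 0.14 in control hearts and 0.41 at the 6E13 dose. C1ra, a protease of the first complement complex, was at 1.13 ± 0.15 and Serping1, its inhibitor, at 1.104 ± 0.19 (adjusted p = 0.00426 and 0.0126). Insulin-like growth factors and their binding proteins had 7 of 18 called higher and 0 lower, with a median of 0.79 against -0.03 in control hearts. Igfbp4 was at 1.35 ± 0.15, Igfbp3 at 0.87 ± 0.13 and Igf1 at 0.63 ± 0.15 (edgeR, adjusted p = 0.0026, 0.00632 and 0.0378).

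Mitochondrial ribosome genes had 9 of 44 called lower and 0 higher, with 43 below 0 and a median of -0.34. Cytosolic ribosome genes had 0 of 56 called lower and 0 higher by edgeR (0 and 0 at an unadjusted p under 0.05), with a median of -0.05. Genes of caveolae, dyads and triads had 3 of 26 called lower, and axon guidance genes 3 of 37 called higher.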
